A study of Mus musculus with 18 samples.

Results

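The genes described here encode the BAFF and APRIL system, a pair of TNF family ligands and the receptors that bind them. They are Tnfsf13b (BAFF), Tnfsf13 (APRIL), Tnfrsf13b (TACI), Tnfrsf13c (BAFF-R) and Tnfrsf17 (BCMA). They were chosen by name, with earlier results of these data known, and they are 5 of the 49585 genes counted in the 18 libraries. All 5 passed the filter on low counts in both main fits, that of the inflamed libraries and that of the node libraries. Tnfsf13b (ENSMUSG00000031497) lies on the plus strand of chromosome 8 at 10006467 to 10039072 and Tnfsf13 (ENSMUSG00000089669) on the minus strand of chromosome 11 at 69682846 to 69685784. Tnfrsf13b (ENSMUSG00000010142) lies on the plus strand of chromosome 11 at 61126755 to 61149372 and Tnfrsf13c (ENSMUSG00000068105) on the minus strand of chromosome 15 at 82221743 to 82224369. Tnfrsf17 (ENSMUSG00000022496) lies on the plus strand of chromosome 16 at 11313812 to 11320074, all in GRCm38 with GENCODE M21 gene models.

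The study used mice of the Kaede strain, whose photoconvertible protein turns from green to red under violet light, to compare leukocytes that stay in inflamed tissue with those that leave it. Recipient mice aged 6 to 10 weeks received Th1 cells made from OT-II CD45.1 donors, were immunized with OVA in CFA and were then challenged in the footpad or the ear pinna with 100 μg heat-aggregated OVA (HAO). The tissue was exposed to light on day 3 after challenge, and viable CD45+ Kaede red+ cells were sorted the next day from the tissue (joint nonmigrated, skin nonmigrated) or from its draining lymph node (joint migrated, skin migrated). Each of these 4 groups had 3 biological replicates, each a pool of 8 to 18 matched male and female mice. The other 2 groups, also of 3 libraries, called joint node steady and skin node steady here, are labelled as CD45+ leukocytes that moved from the joint or ear to the lymph node at steady state. The joint node steady titles carry PBS and an unexplained tag, KG, and the skin node steady titles read Naive, so whether these cells were Kaede red+ and how many mice each pool held is not stated for them, nor whether skin node steady mice received Th1 cells and immunization. Whatever these titles mark cannot be told apart from site between the steady-state nodes, or where differences from steady state are compared between sites. All 6 groups are of the Kaede strain.

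BAFF and APRIL are made mainly by myeloid cells, dendritic cells and stromal cells, and are released after cleavage by furin-type proteases. BAFF-R binds BAFF alone and carries the survival signal of mature B cells through noncanonical NF-kB, whereas TACI and BCMA bind both ligands and BCMA is known for sustaining plasma cells. TACI is also found on activated B cells and on some myeloid cells, and the whole system is a drug target in autoimmune disease that includes arthritis.

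The ligands were highest in the cells that stayed in the tissue, and BAFF-R was highest in lymph node cells. Tnfsf13b fell in migrated against nonmigrated cells of both sites, from 15.7 ± 0.527 to 1.10 ± 0.143 CPM (read counts scaled to a common library size; mean ± SD, n = 3) in the joint and from 4.84 ± 0.697 to 1.07 ± 0.342 CPM in skin. Tnfrsf13c rose in the same comparisons, from 5.22 ± 2.10 to 33.1 ± 7.52 CPM in the joint and from 0.438 ± 0.280 to 7.89 ± 1.82 CPM in skin. Tnfrsf13b ranged less, with group means of 26.2 to 61.7 CPM in the 4 inflamed groups. A gene was called when the Benjamini-Hochberg adjusted p of edgeR's quasi-likelihood test was under 0.05 and the absolute log2 fold change was above 1.

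By that rule, migration in the joint (migrated against nonmigrated cells) gave calls for 3 of 5 members and for 34.3% of 16777 genes, and migration in skin for 4 of 5 members and 35.4% of genes. Between sites, 2 of 5 were called in nonmigrated cells (background 14.3%) and 1 of 5 in migrated cells (background 1.14%). The change with migration differed between sites for 1 of 5 members (background 6.13%). Without skin nonmigrated replicate 3, the library described in the next paragraph, the members called were 4 in skin, 4 between the nonmigrated groups and 4 for the difference between sites, while the genes called over the whole table went from 5940 to 6106, from 2400 to 3720 and from 1029 to 2610. Against the steady-state nodes, 3 of 5 were called in joint migrated cells (background 24.2% of 17107 genes) and 4 of 5 in skin migrated cells (background 36.5%). Between the steady-state nodes edgeR called 0 of 5 (background 3.89%), 1 of 5 had an unadjusted p under 0.05, and DESeq2's Wald test also called 0. The difference from steady state differed between sites for 1 of 5 members (background 6.11%). The migrated groups enter several of these comparisons, so the comparisons are not independent of each other.

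Sequencing depth ran from 19239531 to 43814403 assigned counts per library, so that 3 counts equalled 0.0650 to 0.165 CPM. All 6 libraries of inflamed skin had fewer counts (at most 22528895) than any other library (at least 28577566), and their column names follow another pattern (an S number in place of an R number) whose meaning is not stated. Depth, or anything else that pattern marks, cannot be told apart from site in the comparisons of inflamed joint with inflamed skin. Nor can it be told apart from inflammation in the comparison of skin migrated with skin node steady cells. The differences from steady state compared between sites carry the same limit. Skin nonmigrated replicate 3 stood apart within its group: its 7 macrophage and monocyte markers summed to 5847 CPM, against 2762 and 1862 CPM in the others. Its T cell markers summed to 251 CPM, against 605 and 658 CPM. Member results that turn on this library, and the counts of pathway genes called, are given with and without it. The pan-leukocyte markers Ptprc and Coro1a, which check the CD45+ label, summed to 1651 to 3754 CPM in every library. In bulk samples such as these, fewer cells of a type and less RNA per cell cannot be told apart.

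**Figure D1:**
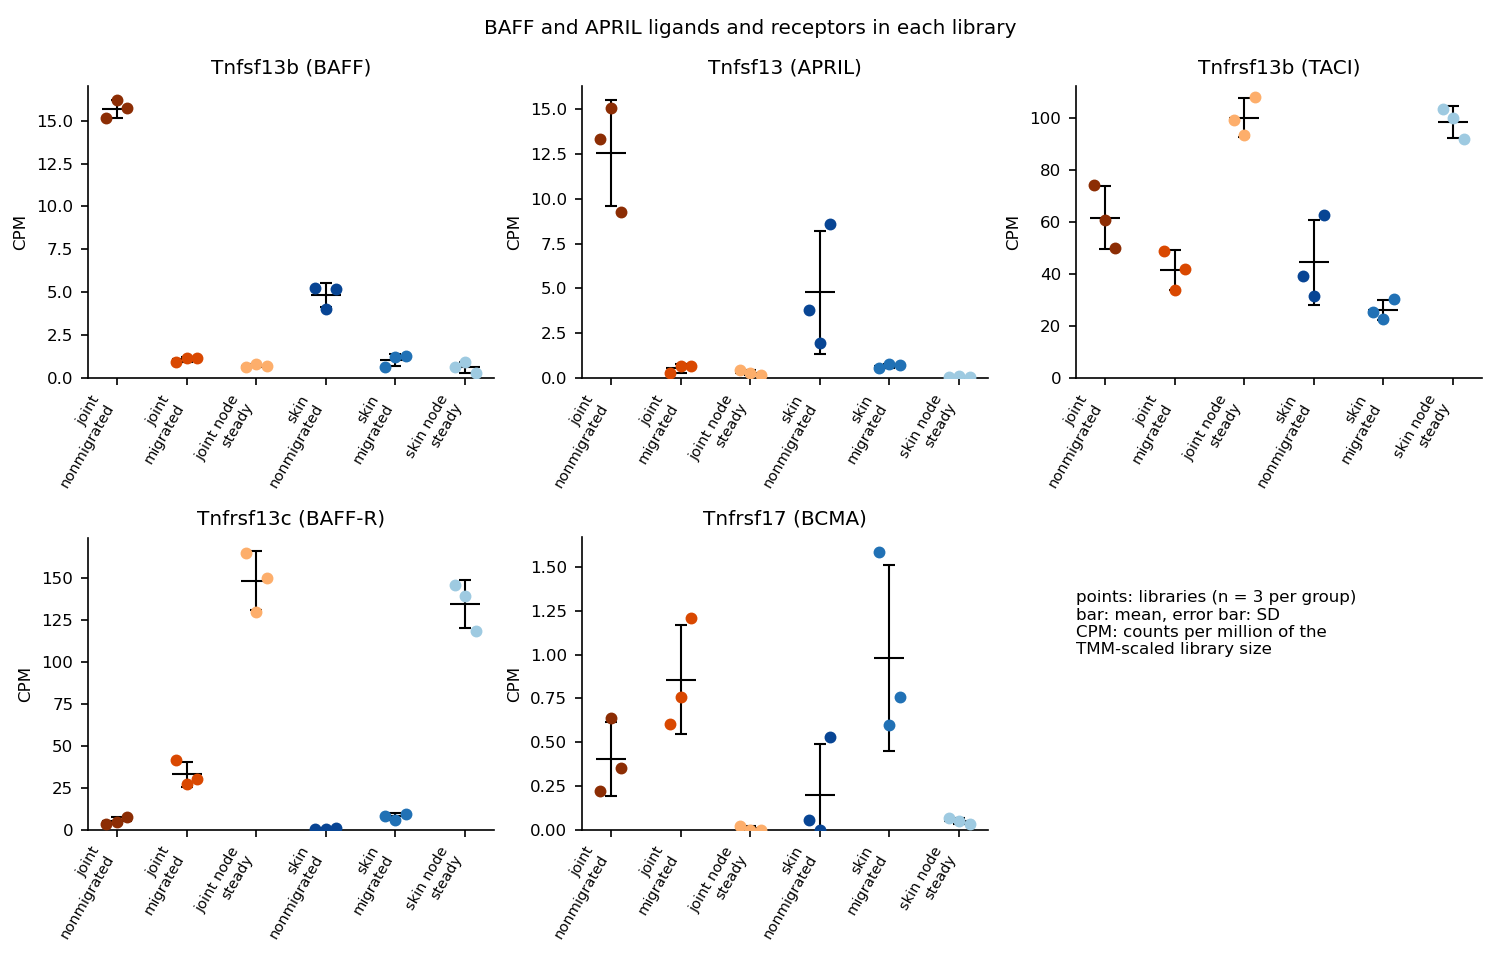
CPM (counts scaled by TMM library size, linear axes from 0) of the 5 genes in each of the 18 libraries. Points are libraries, bars are means and error bars are SD (n = 3 per group). The ligands are highest in nonmigrated cells, with Tnfsf13b at 15.1 to 16.2 CPM in the joint, and Tnfrsf13c is highest in the steady-state nodes, at 119 to 165 CPM.

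The 250 bases upstream of the start site are shown for the BAFF ligand and for TACI and BAFF-R, the receptors whose relative levels the later paragraphs compare (first RefSeq start of each, GRCm38.p6, written along the gene's strand). Capitals mark E-boxes (CANNTG, the letters that basic helix-loop-helix factors bind) and the ETS core (GGAAGT, searched on both strands). Each sequence ends at the base before the start.
Tnfsf13b, chr8:10006217-10006466, plus strand: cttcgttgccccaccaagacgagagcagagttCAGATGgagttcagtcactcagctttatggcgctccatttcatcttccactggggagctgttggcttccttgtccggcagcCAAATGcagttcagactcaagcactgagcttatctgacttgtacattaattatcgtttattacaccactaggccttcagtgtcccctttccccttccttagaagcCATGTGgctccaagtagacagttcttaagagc
Tnfrsf13c, chr15:82224381-82224630, minus strand: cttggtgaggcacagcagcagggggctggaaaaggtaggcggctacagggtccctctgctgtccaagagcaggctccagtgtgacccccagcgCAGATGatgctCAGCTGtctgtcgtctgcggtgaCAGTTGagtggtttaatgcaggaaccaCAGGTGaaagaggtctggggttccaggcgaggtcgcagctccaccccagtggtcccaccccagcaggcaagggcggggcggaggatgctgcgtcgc
Tnfrsf13b, chr11:61126505-61126754, plus strand: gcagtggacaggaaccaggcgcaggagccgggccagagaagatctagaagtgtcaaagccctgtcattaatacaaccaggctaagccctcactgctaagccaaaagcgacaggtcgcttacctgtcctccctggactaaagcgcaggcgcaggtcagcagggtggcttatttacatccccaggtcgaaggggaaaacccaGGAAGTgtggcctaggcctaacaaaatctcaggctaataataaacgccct
The Tnfrsf13c window held 4 E-boxes, at 157, 146, 123 and 96 bases before the start, and the Tnfsf13b window 3, at 218, 137 and 32 bases. The Tnfrsf13b window held none and had 1 ETS core, at 50 bases. An E-box was present in 66.2% of 32851 mouse promoter windows of this length and the ETS core in 19.7%. CCCNNGGG, a short form of the site of the B cell factor EBF, was found in 11.8% of windows. Among the members it was in the Tnfsf13 window alone, at 13 bases. GAAANNGAA, a short form of the IRF site, was found in 7.13% of windows, and among the members in that of Tnfrsf17, at 100 bases, and in that of start site 2 of Tnfsf13b, at 16 bases.

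Tnfsf13b, the ligand of all 3 receptors, had 15.1, 16.2 and 15.7 CPM in joint nonmigrated cells and 0.931, 1.17 and 1.19 CPM in joint migrated cells. In skin it had 5.27, 4.04 and 5.22 CPM in nonmigrated and 0.679, 1.25 and 1.29 CPM in migrated cells. The nonmigrated libraries were all above the migrated ones at both sites. Its log2 fold change was -3.90 (SE 0.245, edgeR adjusted p = 4.45e-07) in the joint and -2.29 (SE 0.246, adjusted p = 1.49e-05) in skin. The difference between these changes was itself called, at -1.61 on the log2 scale (SE 0.332, edgeR adjusted p = 0.0148). It came with a higher level in joint than in skin nonmigrated cells (log2 1.57, SE 0.223, edgeR adjusted p = 0.000655) while the migrated groups differed by -0.04 (SE 0.247, edgeR adjusted p = 0.958), which was not called. Without skin nonmigrated replicate 3 the difference was -1.66 (edgeR adjusted p = 0.00762).

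In the steady-state nodes Tnfsf13b had 0.675, 0.848 and 0.684 CPM (joint) and 0.662, 0.929 and 0.284 CPM (skin), ranges that overlapped each other. The skin node range also overlapped that of skin migrated cells, whereas every joint migrated library lay above every joint node steady library. Neither inflamed node differed from its steady-state node by the call rule (joint log2 0.57, edgeR adjusted p = 0.213; skin log2 0.83, edgeR adjusted p = 0.0749). In skin the call was gained without skin migrated replicate 1 (log2 1.02, edgeR adjusted p = 0.0416) or without skin node steady replicate 2 (log2 1.16, edgeR adjusted p = 0.0330). In order of mean CPM the groups ran joint nonmigrated, skin nonmigrated, joint migrated, skin migrated, joint node steady and skin node steady, and neighbours from joint migrated downward had overlapping ranges.

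Tnfsf13, which encodes APRIL and pairs with TACI and BCMA, is nested in the readthrough gene Tnfsfm13 on the same strand. Of its 1637 exon bases 983 (60.05%) are shared, and the default HTSeq mode leaves reads there uncounted as ambiguous, so its counts come from the remaining 654 bases. Its antisense neighbour Tnfsf13os overlaps it within those shared bases. It had 13.3, 15.0 and 9.27 CPM in joint nonmigrated cells and 0.282, 0.683 and 0.671 CPM in joint migrated cells. In skin it had 3.79, 1.96 and 8.60 CPM in nonmigrated and 0.589, 0.801 and 0.713 CPM in migrated cells. It fell with migration at both sites without overlap, with a log2 fold change of -4.58 in the joint (SE 0.521, edgeR adjusted p = 2.18e-05) and -2.88 in skin (SE 0.516, edgeR adjusted p = 0.000592).

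The highest skin nonmigrated value of Tnfsf13 was that of replicate 3, the library with the most macrophage and monocyte marker signal. Joint nonmigrated exceeded skin nonmigrated cells by 1.26 on the log2 scale (SE 0.448), which was not called (edgeR adjusted p = 0.0551) but was called with DESeq2's Wald test (adjusted p = 0.0255) and in 3 other alternative fits. Without skin nonmigrated replicate 3 the difference was 1.99 and called (edgeR adjusted p = 0.00251), and the difference between the sites in the change with migration moved from -1.70 (edgeR adjusted p = 0.152) to -2.42 (edgeR adjusted p = 0.0108). Steady-state nodes had 0.450, 0.299 and 0.182 CPM (joint) and 0.0685, 0.119 and 0.0946 CPM (skin, 3 to 5 counts per library). Tnfsf13 was higher in skin migrated than skin node steady cells (log2 2.93, SE 0.519, edgeR adjusted p = 0.000257). In that comparison all 7 macrophage and monocyte markers were higher too (median log2 3.03), against 3 higher and 1 lower in the joint (median 0.30), and their part was not tested. For the joint the value of Tnfsf13 was 0.79 (SE 0.425, edgeR adjusted p = 0.139), and 1.43, a call, when the reads of Tnfsf13 and Tnfsfm13 were counted as 1 gene (edgeR adjusted p = 0.00112). Without joint migrated replicate 1 it was 1.08 and also called (edgeR adjusted p = 0.0488).

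Markers of several cell types that could make these ligands changed in the same comparisons, not all in one direction. The 7 macrophage and monocyte markers summed to 5285 to 8152 CPM in joint nonmigrated and 1862 to 5847 CPM in skin nonmigrated cells, and to 55.4 to 126 and 96.9 to 182 CPM in joint and skin migrated cells. All 7 markers fell with migration at both sites, and all 7 were above 3 counts in every library. The 6 neutrophil markers summed to 5188 to 15604 CPM in joint nonmigrated, 1470 to 2357 CPM in skin nonmigrated, 36.1 to 93.5 CPM in joint migrated and 13.4 to 25.3 CPM in skin migrated cells, and all 6 fell. The 7 dendritic cell markers went the other way in their sum, from 235 to 350 CPM in joint nonmigrated to 2226 to 5552 CPM in joint migrated cells and from 470 to 1177 CPM in skin nonmigrated to 3875 to 5619 CPM in skin migrated cells, with 4 of the 7 higher and 1 lower in the joint and 4 higher and 3 lower in skin. Of the 6 stroma and epithelium markers 3 were lower in joint migrated and 6 in skin migrated cells, with none higher. The part of these cell types in the ligand values was not tested.

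**Figure D2:**
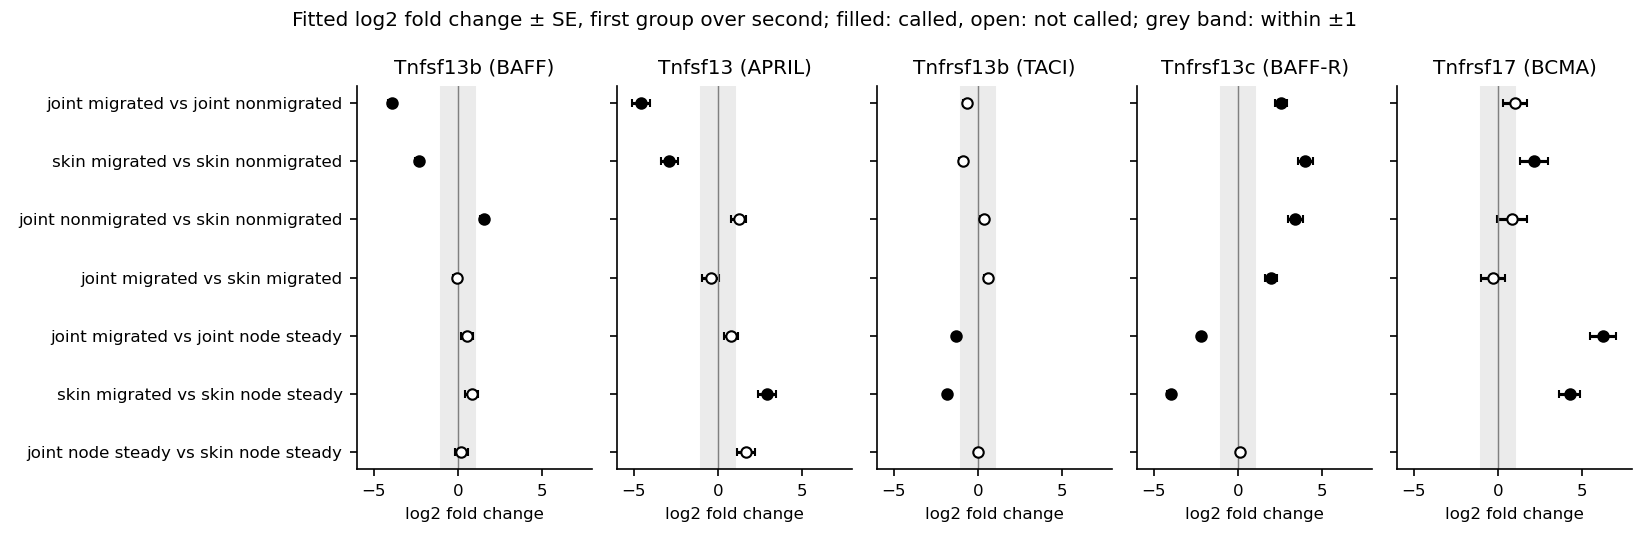
Fitted log2 fold change (x axis, first group over second) of each gene in the 7 pairwise comparisons (rows), with SE as error bars. Filled points were called and open points were not, and the grey band spans -1 to 1. Tnfsf13b and Tnfsf13 lie left of the band in both comparisons of migrated with nonmigrated cells and Tnfrsf13c lies right of it. Tnfrsf17 between the steady-state nodes is left out because no library there exceeded 3 counts.

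Tnfrsf13c, the BAFF-R gene, had the widest range of the receptors. It had 3.58, 4.48 and 7.58 CPM in joint nonmigrated, 41.7, 27.6 and 30.1 CPM in joint migrated and 165, 130.2 and 150.4 CPM in joint node steady cells. In skin the values were 0.165, 0.425 and 0.725 CPM in nonmigrated (3, 8 and 15 counts), 8.47, 5.86 and 9.35 CPM in migrated and 146, 139.6 and 119 CPM in node steady cells. At each site the 3 groups did not overlap and ran in the order nonmigrated, migrated, node steady.

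Tnfrsf13c rose in migrated against nonmigrated cells by 2.59 on the log2 scale in the joint (SE 0.355, edgeR adjusted p = 8.78e-05) and by 4.02 in skin (SE 0.446, edgeR adjusted p = 1.89e-05). The difference between these was -1.43 and not called (SE 0.563, edgeR adjusted p = 0.136), and -2.001 and called without skin nonmigrated replicate 3 (edgeR adjusted p = 0.0424). It was higher in joint than in skin cells, by 3.42 in nonmigrated (SE 0.444, edgeR adjusted p = 0.000404) and by 1.99 in migrated cells (SE 0.348, edgeR adjusted p = 0.0187). The latter call was lost when any 1 of the 6 migrated libraries was left out, with a log2 fold change of 1.81 to 2.16 and edgeR adjusted p of 0.0524 to 0.0700, and it held with DESeq2's Wald test (adjusted p = 1.93e-06).

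Against the steady-state nodes Tnfrsf13c was lower in migrated cells, by a log2 fold change of -2.17 in the joint (SE 0.176, edgeR adjusted p = 3.98e-07) and -4.01 in skin (SE 0.198, edgeR adjusted p = 2.85e-09). The difference between sites, 1.84 (SE 0.2503), was called (edgeR adjusted p = 0.000624). The steady-state nodes themselves, which differ in their titles (PBS and KG, or Naive) as well as in site, differed by 0.14 (SE 0.168, edgeR adjusted p = 0.684). The 7 B cell markers moved in the same order. They summed to 131 to 305, 941 to 1279 and 4891 to 5297 CPM in joint nonmigrated, migrated and node steady cells, and to 17.5 to 29.1, 171 to 290.1 and 3245 to 4404 CPM in the skin groups.

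Tnfrsf13b, the TACI gene, followed a different order. It had 74.2, 60.8 and 50.1 CPM in joint nonmigrated, 48.8, 33.8 and 42.1 CPM in joint migrated and 99.1, 93.3 and 108 CPM in joint node steady cells. In skin it had 39.2, 31.6 and 62.7 CPM in nonmigrated, 25.5, 22.7 and 30.3 CPM in migrated and 103, 100.1 and 91.9 CPM in node steady cells. The steady-state nodes overlapped each other and lay above all inflamed groups. The joint nonmigrated, skin nonmigrated and joint migrated ranges each overlapped the next, and skin migrated cells were lowest without overlap.

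Tnfrsf13b was not called between migrated and nonmigrated cells at either site, since its log2 fold changes of -0.63 (SE 0.231, edgeR adjusted p = 0.0358) and -0.88 (SE 0.235, edgeR adjusted p = 0.00730) were under 1 in size. In skin it passed that size without skin nonmigrated replicate 2 (-1.07, edgeR adjusted p = 0.00240) or without skin migrated replicate 3 (-1.002, edgeR adjusted p = 0.0112). Without skin nonmigrated replicate 3 it was -0.56 (edgeR adjusted p = 0.0294). Joint and skin did not differ by the call rule in nonmigrated (log2 0.35, SE 0.231, edgeR adjusted p = 0.286) or migrated cells (log2 0.59, SE 0.233, edgeR adjusted p = 0.230). Against steady state it was lower in joint migrated (log2 -1.28, SE 0.133, edgeR adjusted p = 3.78e-06) and in skin migrated cells (log2 -1.83, SE 0.137, edgeR adjusted p = 9.70e-08). The difference between those, 0.56 (SE 0.187), was not called (edgeR adjusted p = 0.0762).

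Tnfrsf17, the BCMA gene, had low counts in all groups and was at or under 3 counts in every steady-state library. It had 8, 19 and 12 counts in the joint nonmigrated libraries, 28, 31 and 54 in joint migrated and 1, 0 and 0 in joint node steady. In skin it had 1, 0 and 11 counts in nonmigrated, 35, 12 and 17 in migrated and 3, 2 and 1 in node steady libraries. Means were 0.404 ± 0.211, 0.857 ± 0.313 and 0.00750 ± 0.0130 CPM in the joint groups and 0.195 ± 0.292, 0.981 ± 0.529 and 0.0492 ± 0.0185 CPM in the skin groups. Migrated cells were thus above the steady-state nodes in every library at both sites.

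Summed over 3 libraries per group and scaled for library size, Tnfrsf17 reads in joint migrated cells were 110.0 times those in joint node steady cells (113 against 1 count, exact 95% interval 19.4 to 4385), and 19.4 times in skin (64 against 6 counts, 8.45 to 54.9). These intervals cover counting error only. The fit called both differences (edgeR adjusted p = 1.63e-05 and 4.00e-05), and its fold changes depend on the prior count at such levels. The ratio of migrated to nonmigrated cells was 2.19 in the joint (1.51 to 3.24) and 4.77 in skin (2.55 to 9.72). The fit did not call the joint difference (log2 1.03, SE 0.726, edgeR adjusted p = 0.2498). It called the skin difference narrowly (log2 2.15, SE 0.852, edgeR adjusted p = 0.0479), and 4 of 6 fits without 1 library lost that call (those without skin nonmigrated replicate 1 or 2 or skin migrated replicate 1 or 3, edgeR adjusted p up to 0.167). Without skin nonmigrated replicate 3, which held 11 of the group's 12 counts, it was 4.89 (edgeR adjusted p = 0.00232), and 2 more differences of Tnfrsf17 were called, joint over skin nonmigrated cells (log2 3.58, edgeR adjusted p = 0.0287) and the sites' change with migration (-3.86, edgeR adjusted p = 0.0490).

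The 6 plasma cell markers summed to 592 to 669, 558 to 907 and 409 to 448 CPM in joint nonmigrated, migrated and node steady cells and to 383 to 585, 644 to 917 and 256 to 325 CPM in the skin groups. None was at 0 throughout a group, and this list includes genes that other leukocytes also use. The part of plasma cells in the Tnfrsf17 values was not tested.

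On a scale per kilobase of exon, which allows levels of different genes to be compared, TACI was the main receptor transcript in tissue and BAFF-R in steady-state nodes. Tnfrsf13b made up 81.0% to 92.8% of the summed receptor level in joint nonmigrated, 45.0% to 47.9% in joint migrated and 30.2% to 34.2% in joint node steady libraries. In skin the shares were 95.6% to 98.9%, 59.7% to 69.0% and 33.8% to 35.8%. Tnfrsf13c shares were 6.20% to 17.0%, 47.3% to 53.1% and 65.8% to 69.7% in the joint groups and 0.576% to 1.83%, 24.7% to 28.2% and 64.1% to 66.1% in the skin groups. Tnfrsf17 reached 4.78% in joint migrated and 12.9% in skin migrated cells, the latter from 35 counts. The lengths were all annotated exon bases, 2836 for Tnfrsf13b, 2048 for Tnfrsf13c and 815 for Tnfrsf17. In joint migrated cells the mean of Tnfrsf13b was above that of Tnfrsf13c without division by length (41.6 against 33.1 CPM). The order there thus rests on these lengths.

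The Tnfrsf13b to Tnfrsf13c ratio, per kilobase, was 4.77 to 15.0 in joint nonmigrated and 53.7 to 172 in skin nonmigrated libraries. It was 0.847 to 1.01 in joint migrated and 2.17 to 2.80 in skin migrated libraries. In the steady-state nodes it was 0.434 to 0.519 (joint) and 0.512 to 0.558 (skin). The inflamed groups did not overlap each other, and the steady-state nodes of the 2 sites did. The skin nonmigrated ratios rest on 3 to 15 counts of Tnfrsf13c. Per kilobase, Tnfsf13 exceeded Tnfsf13b in joint nonmigrated cells (19.2 ± 4.53 against 2.28 ± 0.0768 CPM per kilobase). The length of Tnfsf13 was taken as its unshared 654 bases and that of Tnfsf13b as all its 6868 annotated exon bases. Without division by length the order of the means was the reverse (12.5 against 15.7 CPM), so the excess rests on these lengths.

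**Figure D3:**
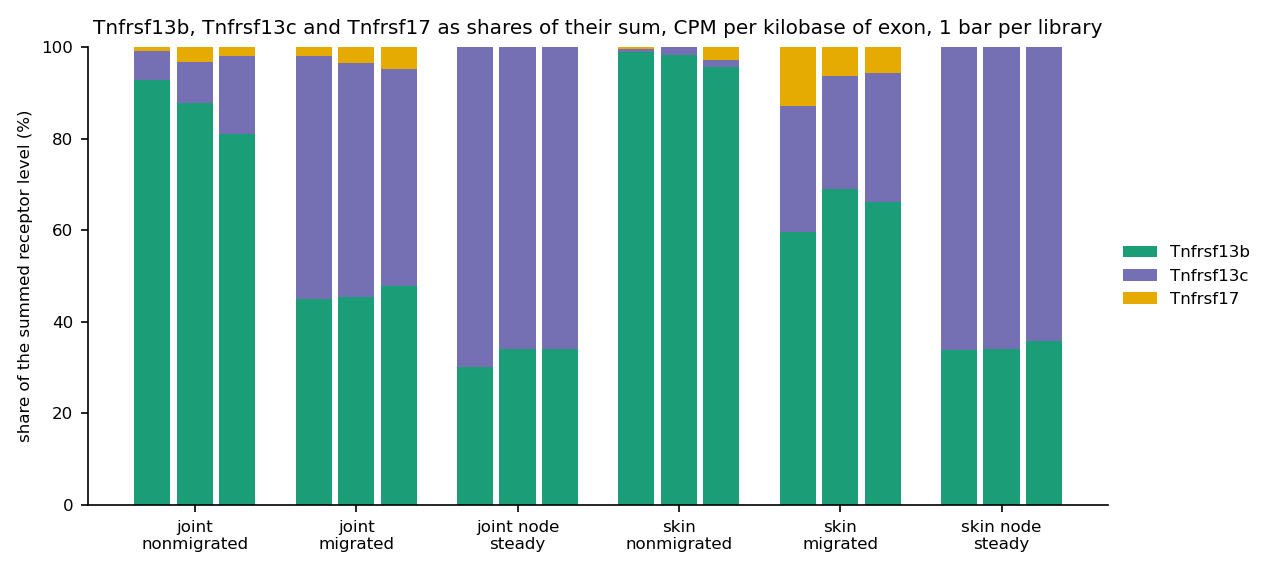
Shares (%) of Tnfrsf13b, Tnfrsf13c and Tnfrsf17 in their summed level (CPM per kilobase of exon), with 1 stacked bar per library. Tnfrsf13b fills 81.0% or more of each nonmigrated bar and 35.8% or less of each steady-state bar.

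The receptors were also set against B cell markers. The measure was log2(CPM + 1) of the receptor minus the mean log2(CPM + 1) of the 7 markers, which include Cd22 and Cd79b. Tnfrsf13c lay at -2.14 ± 0.161 in joint migrated and -2.10 ± 0.203 in joint node steady cells, a difference of -0.05 with overlapping ranges. It lay at -1.82 ± 0.118 in skin migrated and -1.83 ± 0.0663 in skin node steady cells, a difference of 0.01 (exact permutation p = 0.8 for both). Over the same pairs of groups Tnfrsf13b differed, at -1.82 ± 0.0325 against -2.66 ± 0.0874 in the joint and -0.19 ± 0.212 against -2.27 ± 0.128 in skin. Those differences of 0.84 and 2.08 had no overlap between groups. Their exact two-sided permutation p was 0.1, the smallest that 3 against 3 libraries allow (Benjamini-Hochberg 0.133 over 12 comparisons), so this test cannot pass 0.05. Tnfrsf13b itself was lower in migrated than in steady-state cells (log2 -1.28 in the joint and -1.83 in skin). The positive differences arise because the 7 markers were lower still (median log2 -2.12 and -4.14).

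Tnfrsf13b relative to the markers was also lower in joint than in skin migrated cells, by a difference of -1.62 without overlap (exact permutation p = 0.1). For Tnfrsf13c that difference was -0.33, again without overlap (exact permutation p = 0.1). Before division by the markers, the mean of Tnfrsf13b was higher in joint than in skin migrated cells (41.6 against 26.2 CPM, not called). The marker sums were higher there too (941 to 1279 against 171 to 290.1 CPM). In nonmigrated cells Tnfrsf13b reached 0.39 to 2.05 in the joint and 3.54 to 4.22 in skin, where the summed B cell markers were at most 29.1 CPM and 5 of 7 markers exceeded 3 counts in every library. The choice of marker mattered for Tnfrsf13c. Over 6 of the markers taken alone, its difference of migrated from steady-state cells ran from -0.82 to 0.41 in the joint and from -1.31 to 0.75 in skin, whereas that of Tnfrsf13b was above 0 with each, at 0.0687 to 1.30 and 0.76 to 2.82. Tnfrsf17 was too close to the floor for this measure, in which its value follows the markers.

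**Figure D4:**
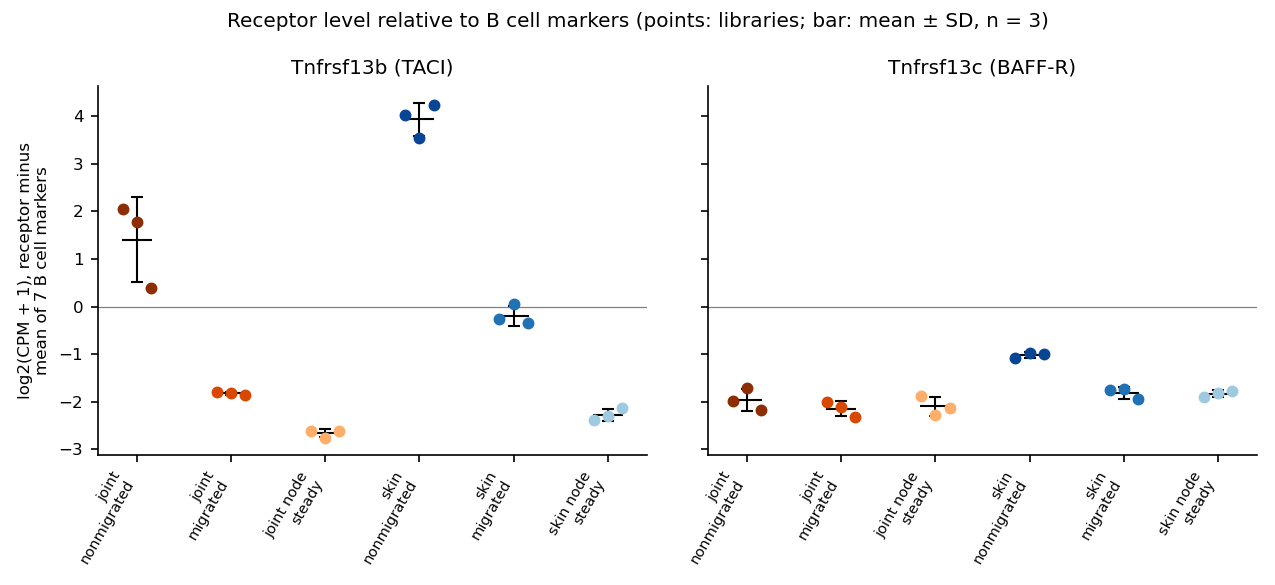
Log2(CPM + 1) of Tnfrsf13b and Tnfrsf13c minus the mean of 7 B cell markers on the same scale. Points are libraries and bars are means ± SD (n = 3). Tnfrsf13c overlaps between migrated and steady-state groups, whereas Tnfrsf13b ranges from -2.76 in a joint node steady library to 4.22 in a skin nonmigrated library.

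Genes of the pathway were taken from 7 lists with 43 genes, all of which were tested. Between joint migrated and nonmigrated cells 11 were called higher and 14 lower (background 34.3% called), with a median log2 fold change of -0.08 against 0.02 over all genes tested. In skin 7 were higher and 16 lower (background 35.4% called), with a median of -0.34 against 0.01. Without skin nonmigrated replicate 3, 18 of the 43 were called in skin, with 6106 genes called over the whole table. All 5 genes for ligand processing and binding were lower at both sites. They are Furin, the protease that releases the ligands, and the syndecans Sdc1, Sdc2, Sdc3 and Sdc4, whose heparan sulfate chains bind APRIL, with Sdc1 also a plasma cell marker. Their medians were -2.45 in the joint and -2.95 in skin. Sdc2 had low counts in skin (edgeR adjusted p = 0.0293). They were 9, 9 and 27 in skin nonmigrated replicates 1, 2 and 3 and 5, 6 and 7 in the skin migrated ones. Furin fell by 2.05 in the joint and by 3.43 in skin on the log2 scale, and the difference of 1.38 between sites was called (SE 0.335, edgeR adjusted p = 0.0297).

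Of all 16777 genes tested, 3079 were called lower in joint migrated and 3307 in skin migrated cells. Among genes of receptor shedding, 5 of 9 were lower at both sites and none was higher. Among them were Adam17, a sheddase, and Aph1b, Aph1c and Ncstn of gamma-secretase, the protease that trims BCMA from the surface. All 3 genes of the list holding the related ligand TWEAK were lower at both sites, Tnfsf12 by a log2 fold change of -3.94 and -3.75 and its receptor gene Tnfrsf12a by -1.58 and -1.43, in the joint and in skin. The third was the readthrough gene Tnfsfm13, at -3.97 and -3.08.

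Signalling genes moved less uniformly. Of 12 adaptors and kinases, 4 rose in joint migrated cells (Birc2, Traf1, Traf2 and Traf5) and 2 in skin migrated cells (Birc2 and Traf1). None of the 12 was lower. Of all 16777 genes tested, 2678 were called higher in joint migrated and 2633 in skin migrated cells. Birc2 encodes an inhibitor of NIK accumulation and rose by 2.38 in the joint and 1.93 in skin. Relb, the partner of p52 in noncanonical NF-kB, rose by 2.38 and 2.02. Nfkb2, which encodes the precursor of p52, was called in skin (1.03). Of the survival targets, Mcl1 was lower at both sites (-1.81 and -1.75), Bcl2 (2.07) and Pim2 (2.38) were higher in the joint, and Bcl2l1 (-1.41) and Bcl2l11 (-1.37) were lower in skin.

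The 4 B cell target genes were all higher in joint migrated cells and 3 of 4 in skin migrated cells. Over all 16777 genes tested, 2678 were called higher in the joint and 2633 in skin. Cr2, the complement receptor CD21, rose by 5.14 in the joint and was called in skin, where the nonmigrated libraries held 0, 1 and 6 counts and the fitted fold depends on the prior count. Fcer2a, the IgE receptor CD23, rose by 4.65 in the joint and by 4.49 in skin. Icosl, a costimulatory ligand, rose by 2.32 and 2.19. Cr2 and Fcer2a were the only 2 of the 43 called between joint and skin migrated cells (background 1.14%), both higher in the joint (2.57 and 2.77), and 1 of the 43 was called without skin migrated replicate 1 or without joint migrated replicate 1 or 3. In nonmigrated cells (background 14.3%) 3 were higher in the joint, Cr2 (over the same low skin counts), Fcer2a (2.60) and Aph1b (1.03). The 5 lower were Bcl2l1 (-1.96), Pim2 (-1.64), Traf1 (-1.57), Furin (-1.04) and Map3k14 (-1.003). The number called was 5 without skin nonmigrated replicate 1 or 2, without joint nonmigrated replicate 3, or with only the groups compared. It was 10 without skin nonmigrated replicate 3 and 2 at adjusted p under 0.001.

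Against the steady-state nodes, 11 pathway genes were higher and 2 lower in joint migrated cells (median 0.19, all genes -0.02, background 24.2% called), and 14 were higher and 3 lower in skin migrated cells (median 0.56, all genes 0.00, background 36.5% called). These shares lie near those of all genes. Sdc3 (2.48 and 3.82) and Relb (2.64 and 3.20) rose at both sites. Sdc2 was also called, from 0 to 2 counts per steady-state library and 5 to 20 per migrated library, where the fitted fold depends on the prior count. Cr2 (-2.74 and -4.62) and Fcer2a (-2.43 and -5.29), genes of mature B cells, were lower at both sites, as Tnfrsf13c was, and Bcl2 was lower in skin (-1.22). Between the steady-state nodes Aph1b alone was called (1.14), a call that was lost without skin node steady replicate 1 or 2.

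The genes most like each member in their profile over the 18 libraries were ranked by the root mean square difference of centred log2(CPM + 1) among 18109 genes. For Tnfrsf13c, whose own deviation about its mean was 2.45, they were Cd22 (0.352), Cd79b (0.352), Cacna1i (0.355), Fcrl1 (0.372) and Ffar1 (0.382). For Tnfsf13b, with a deviation of 1.23, they were Tiam2 (0.281), Spink2 (0.290), Cib2 (0.294), G6pdx (0.301) and C1s1 (0.302). For Tnfsf13 (1.33) they included Galc (0.195), Apobec1 (0.229), Tnfsfm13 (0.233) and Ehd4 (0.261).

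For Tnfrsf13b (0.723) the most alike genes were Fam69a (0.215), Camk2d (0.216), Slc28a2 (0.228), Tctn1 (0.239) and Rnase6 (0.242). The measure is not scaled for range, so genes that vary much more than a member cannot rank near it, whatever their pattern. For Tnfrsf17 (0.420), whose low level leaves little range, they were Ccser1 (0.164), Jpt2 (0.170), Nup93 (0.178), Gal (0.182) and Rapsn (0.196). These values describe likeness across libraries that share groups and depth.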

How the data were processed

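RNA was sequenced from 18 libraries of sorted leukocytes in 6 groups of 3, grouped by the source labels. The authors trimmed reads with Trim Galore, aligned them with TopHat2 to mm10 with Ensembl release 87 models and deposited raw counts per gene made with HTSeq defaults. The submitters' processing notes also name FastQC, Cufflinks and DESeq2. The 5 HTSeq summary lines (11.3% to 15.1% of each column) were removed. Whether the kit marked strand is not given in the sources used here. Of 49585 genes, 49326 matched GENCODE M21, which is a later release than the authors used.

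Counts were fitted with edgeR 4.0.16 (quasi-likelihood, TMM, filterByExpr with minimum count 10) in R 4.3.3, the 12 inflamed libraries in one fit and the 12 node libraries in another, with Benjamini-Hochberg adjustment over all genes tested (16777 and 17107). SE is the absolute log2 fold change over the square root of F. A call needed adjusted p under 0.05 and absolute log2 fold change above 1, as in the study's methods. CPM use TMM factors over all 18 libraries. DESeq2 1.42.0, its size factors, adjusted p under 0.001, no filter, other sample sets, a replicate block and leaving out each replicate were the alternatives, and counting Tnfsf13 with Tnfsfm13 was chosen after seeing the data. The edgeR fits were tested on simulated counts. Promoters came from RefSeq tables. Libraries of a group differed beyond sampling noise (chi-square over its degrees of freedom 16.2 to 129.6), so each counted as 1 replicate.

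The genes and lists were chosen with earlier results of these data known. Named were the 5 members, up to 3 called pathway genes per comparison and direction with the largest change, genes that a count of 5 or fewer covers, and the 5 most alike genes per member. Other pathway genes were named after their values were seen. Some genes that this rule covers and 1 further choice of B cell markers are not reported here. Taking 6 of the 7 B cell markers alone as denominators was added after seeing the data.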

Additional observations from a re-analysis of the deposited data

Results flagged for a closer look

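Between joint and skin, 2 members and 7 pathway genes gave a tested difference of effects, each an interaction in edgeR's fit. Calls on the change with migration covered 1 of 5 members and 3 of 43 pathway genes (background 6.13%). Calls on the difference from the steady-state node covered 1 of 5 members and, of 43 pathway genes, 2 higher and 2 lower (background 6.11%). The pathway shares lie near those of all genes. For the change with migration, joint minus skin, the difference was -1.61 on the log2 scale for Tnfsf13b, 1.38 for Furin, 1.35 for Bcl2l1 and 1.72 for Pim2. In that comparison the Tnfsf13b nonmigrated means were 15.7 CPM in the joint and 4.84 CPM in skin, and the migrated means 1.10 and 1.07 CPM. For the difference from the steady-state node, joint minus skin, it was 1.84 for Tnfrsf13c, 1.88 for Cr2, 2.86 for Fcer2a, -1.34 for Sdc3 and -1.47 for Aph1b. The B cell marker sums moved with the first 3 of these, from at most 1279 CPM in joint migrated and 290.1 CPM in skin migrated cells to at least 3245 CPM at steady state, and their part in the difference was not tested. With Sdc3 and Aph1b, 6 of 7 macrophage and monocyte markers (median -2.46) and 6 of 6 neutrophil markers (median -3.66) had a negative difference, whose part was likewise not tested. Of the 3 pathway calls on the change with migration 1 was left in 5 of the fits without 1 replicate, 9 genes were called without skin nonmigrated replicate 3, and 0 at adjusted p under 0.001. Groups of 3 libraries are too small to test for outlying samples.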

How the results depend on the processing

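The size factors of DESeq2 moved no member's log2 fold change by more than 0.0221. With adjusted p under 0.001 the genes called were 3586, 3508, 511, 0 and 20 in the 5 comparisons of inflamed groups in the order of the report (joint migration, skin migration, nonmigrated sites, migrated sites, site by migration), 2714 for joint migrated against joint node steady, 246 between steady-state nodes and 152 for site by inflammation, and the members called between migrated sites and for site by migration were 0 and 0. Between migrated sites DESeq2's Wald test called 487 genes, no filter 327 and the fit of all 18 libraries 407. For site by migration the Wald test called 1756 and the fit of all 18 called 1664, and for site by inflammation the latter called 666. Leaving out 1 replicate gave 1745 to 3720 genes and 2 to 4 members between nonmigrated sites, 58 to 171 genes and 0 members between migrated sites, 582 to 2610 genes and 1 to 4 members for site by migration, and 695 to 1240 genes for site by inflammation. The highest counts between nonmigrated sites and for site by migration were those without skin nonmigrated replicate 3. The cause was not tested.

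Changes of sign occurred for Tnfsf13b between migrated sites (0.0191 with no filter, -0.26 to 0.14 with a replicate left out), Tnfrsf17 between migrated sites (-0.57 to 0.29), Tnfrsf13b for site by migration (-0.0709 to 0.44), Tnfsf13b (-0.12 to 0.59) and Tnfrsf13b (-0.0264 to 0.0640) between steady-state nodes, and Tnfsf13b for site by inflammation (-0.60 to 0.11). With a pseudocount of 0.1 Tnfrsf13c relative to the B cell markers differed by -0.10 between skin migrated and skin node steady cells. Over 6 of the B cell markers taken alone, the difference between joint and skin migrated cells was -2.16 to -1.03 for Tnfrsf13b and -0.87 to 0.27 for Tnfrsf13c, the joint difference from steady state 0.0687 to 1.30 and -0.82 to 0.41, the skin difference 0.76 to 2.82 and -1.31 to 0.75, and the difference between steady-state nodes -0.54 to -0.18 and -0.42 to -0.0632. The pathway genes called between steady-state nodes were 0 with the replicate block and 2 to 3 with DESeq2's Wald test, no filter or only the groups compared.

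The labels give the groups shared replicate numbers but do not say that a number marks a shared mouse pool. Same-number correlations were 0.0214 to 0.251 between joint nonmigrated and migrated cells, 0.0722 to 0.175 in skin and below 0 against the steady-state nodes, and the same number was the best match for 2 of 3 joint and 3 of 3 skin libraries. Across the sites, which were challenged separately, it was the best match for 2 of 3 migrated libraries (0.0903 to 0.188). For nonmigrated and for steady-state libraries across the sites it was the best match for 0 of 3. With the replicate block the genes called were 5747, 5834, 2405, 138, 826, 3836, 5953, 612 and 773 over the 9 comparisons and the members called 3, 3, 3, 1, 1, 3, 4, 0 and 1. Under the block Tnfrsf17 lost its call in skin migration (edgeR adjusted p = 0.0562) and Tnfsf13 gained one between nonmigrated sites (edgeR adjusted p = 0.0387). Tnfsf13 also gained that call with DESeq2's Wald test (adjusted p = 0.0255), no filter (0.0311) and the fit of all 18 libraries (0.0270), and Tnfrsf17 also lost its call when only the skin groups were fitted (0.102).

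Depth limits Tnfrsf17 throughout, Sdc2 in lymph node and skin nonmigrated cells, Tnfsf13 in the skin steady-state node and Tnfrsf13c in skin nonmigrated cells. The p values measure the spread between libraries.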

Other observations

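The TWEAK gene Tnfsf12, which shares 731 of its 1515 exon bases with Tnfsfm13 and lies next to Tnfsf13, had 46.7, 45.8 and 32.8 CPM in joint nonmigrated, 2.34, 3.17 and 2.98 CPM in joint migrated and 0.810, 0.524 and 0.296 CPM in joint node steady libraries. In skin it had 31.4, 14.2 and 48.1 CPM, 2.04, 2.45 and 3.03 CPM, and 0.617, 0.405 and 0.221 CPM in the same order. Migrated cells lay between the other groups at both sites without overlap. The readthrough gene Tnfsfm13, which joins Tnfsf12 to Tnfsf13, had means of 15.7, 1.04 and 0.271 CPM in the joint groups and 7.39, 0.931 and 0.203 CPM in the skin groups. Both were called higher in migrated than in steady-state node cells, Tnfsf12 by 2.36 and 2.63 and Tnfsfm13 by 1.91 and 2.26 on the log2 scale in joint and skin.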
